A study of Mus musculus with 46 samples.

Results

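Long noncoding RNAs are transcripts that act, or are kept, without being translated, and 7 of them were followed here: Malat1, Neat1, Meg3, Rian, Mirg, Miat and Snhg11. The 7 genes were found by their mouse Ensembl identifiers among the 43346 genes of the deposited count and FPKM tables, and all 7 passed the filter on low counts in both tissues. RNA was sequenced from the right striatum and right cerebral cortex of 23 mice, which gave 46 libraries, with 1 library per tissue and animal. The study asked what differs in R6/2 mice, a transgenic model of Huntington's disease, and whether a kynurenine 3-monooxygenase (KMO) inhibitor alters it. KMO is an enzyme of tryptophan breakdown that in brain is found mainly in microglia.

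Treated R6/2 mice (8 animals, 4 female) received CHDI-00340246 by mouth at 30 mg/kg, 2 times a day, between weeks 4 and 12 of age. Vehicle R6/2 mice (7 animals, 4 female) received the carrier, 10% HP-β-CD in 50 mM citrate buffer of pH 5.5. WT mice (8 animals, 4 female) were given the same carrier. No WT group with the compound was made, and its effect was therefore tested among R6/2 mice. Both R6/2 groups carried Tg(HDexon1)62Gpb, exon 1 of the human huntingtin gene with a long CAG repeat under the human promoter, and every mouse was 12 weeks old with the background given as C57BL6/J. The replicates are separate animals, named here by sex and a number given within each tissue (F1, M3), and the animal codes in the labels tie each striatum to its cortex.

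Malat1 and Neat1 are neighbouring genes whose transcripts stay in the nucleus. Malat1 RNA gathers at nuclear speckles, which hold splicing factors, and Neat1 RNA is the scaffold of paraspeckles, bodies that hold RNA-binding proteins and are known to vary with the state of a cell. Meg3, Rian and Mirg follow one another in the imprinted Dlk1-Dio3 domain, where they are transcribed from the maternal chromosome and carry small nucleolar RNAs and miRNAs, while Dlk1, Rtl1 and Dio3 are expressed from the paternal one. Miat is a nuclear RNA of neurons, and Snhg11 is a host transcript of small nucleolar RNAs.

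Malat1 lies at chr19:5795690-5802672 and Neat1 at chr19:5824708-5845478, both on the minus strand with 22.0 kb between them. Meg3 (chr12:109541001-109571726), Rian (chr12:109603940-109661716) and Mirg (chr12:109729764-109749460) lie on the plus strand of chromosome 12, with 32.2 kb between Meg3 and Rian and 68.0 kb between Rian and Mirg. Miat is at chr5:112213228-112229395 on the minus strand and Snhg11 at chr2:158375638-158386145 on the plus strand. These are GENCODE vM21 positions on mm10, and the deposited tables hold 1 row per gene, so isoforms are not separated. GENCODE vM21 gives the type lincRNA to 5 of the 7 genes, processed transcript to Rian and protein coding to Snhg11.

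Malat1 and the long isoform of Neat1 are known to share an unusual end that replaces a poly(A) tail. In it an A-rich tract pairs with U-rich runs to form a triple helix. The 100 bases of genome shown for each (GRCm38, the build of mm10, minus strand) carry those runs in capitals, and they are printed because this element is the known mark of the pair. The Malat1 stretch is chr19:5795982-5796081, which lies 292 bases before the annotated transcript end, and the Neat1 stretch is chr19:5824708-5824807, the last bases of its long isoform. The long Neat1 isoform has 20771 bases and the short one 3004, and the deposited gene row does not tell them apart.
Malat1: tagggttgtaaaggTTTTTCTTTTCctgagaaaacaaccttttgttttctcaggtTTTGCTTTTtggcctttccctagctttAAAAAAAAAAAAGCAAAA
Neat1: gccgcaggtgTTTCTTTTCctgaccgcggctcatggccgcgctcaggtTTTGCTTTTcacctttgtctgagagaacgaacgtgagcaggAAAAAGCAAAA

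The Meg3 start is shown because Meg3, Rian and Mirg were higher in R6/2 striatum and Meg3 holds the first start of the cluster. The 300 bases come from RefSeq on GRCm38.p6 at chr12:109540746-109541045, plus strand, with 250 bases before the start site and 50 after it. Capitals mark matches on either strand to CCAAT at position -100 from the start site, TGACGTCA (the cAMP response element) at -57, and 2 overlapping matches to TATAAA at -29 and -25. Of 32851 such mouse windows, 1.79% hold TGACGTCA, 13.62% hold TATAAA and 37.41% hold CCAAT. The GC box GGGCGG, held by 35.66% of windows, is not in this one. The E-box CACGTG, held by 7.15%, is not in it either. The window has 13 CG pairs, against a median of 7 over all windows and 0 in the window of Rian. Another Meg3 start window, at chr12:109545148-109545447 and not printed, has 1 CG pair and 0 matches to these motifs. A match is a description of letters and not a binding site.
Meg3: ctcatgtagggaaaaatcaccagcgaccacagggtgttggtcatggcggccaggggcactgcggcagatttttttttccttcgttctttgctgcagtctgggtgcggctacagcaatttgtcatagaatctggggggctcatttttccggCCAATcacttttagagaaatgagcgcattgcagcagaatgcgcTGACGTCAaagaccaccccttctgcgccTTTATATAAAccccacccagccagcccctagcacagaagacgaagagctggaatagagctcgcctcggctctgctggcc

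RefSeq places 3 mature miRNAs inside Meg3, 6 inside Rian and 26 inside Mirg, from 14 Mirg hairpins. Of these 35, those below are shown as examples of what each host carries, with the seed (bases 2 to 8) in capitals. The last pair, both from Mirg, carries the one seed shared by 2 mature miRNAs of these hosts. The miRNA and snoRNA rows inside the 7 genes held at most 6 counts in any library, so the host transcripts were measured and the small RNAs were not.
Meg3 miR-770-3p: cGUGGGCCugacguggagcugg
Rian miR-370-3p: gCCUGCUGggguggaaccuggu
Mirg miR-134-5p: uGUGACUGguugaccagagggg
Mirg miR-485-3p: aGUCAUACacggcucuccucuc
Mirg miR-453: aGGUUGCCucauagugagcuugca
Mirg miR-496a-5p: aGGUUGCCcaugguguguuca

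Library totals, in units of 1000000 counts, were 30.4 to 36.0 for striatum and 31.8 to 37.8 for cortex, and the 7 genes took 0.88% to 1.46% and 0.99% to 1.60% of them. CPM below are counts per 1000000 after TMM scaling, a scaling that sets the bulk of genes equal between libraries. Labelled tissues matched their markers: in WT mice all 14 striatal projection neuron markers were higher in the striatum than in the cortex. The treated striatal library F4 stood apart, with summed striatal projection neuron markers of 1021 CPM against 2939 to 4064 CPM in the other treated striata. The tests of the members in treated striatum are given with and without this library, and those of gene lists with it only. Among treated striata it gave the lowest Malat1 and Neat1 and the highest Miat and Snhg11 of the ranges below. Among WT striata, M1 held the lowest share of counts in the 7 genes, 0.88% against 1.02% to 1.20% in the others. Library M1 gave the lowest WT striatal Malat1, Meg3, Miat and Snhg11 and the highest Neat1 and Mirg. The cortex of the same animal gave the highest WT cortical Neat1, Meg3, Miat and Snhg11. Tests between tissues were not repeated without this animal. In R6/2 mice many markers of cell types were lower than in WT, and in bulk tissue fewer cells of a type and less RNA per cell cannot be told apart. The summed striatal projection neuron markers were 1021 to 4064 CPM in treated, 3390 to 3867 CPM in vehicle and 7862 to 10380 CPM in WT striatum. The summed astrocyte markers were 3622 to 3974, 3392 to 4404 and 5800 to 6961 CPM in the same 3 groups, and summed oligodendrocyte markers were 6048 to 11751, 8219 to 8823 and 10181 to 14183 CPM. In the cortex summed cortical projection neuron markers were 3596 to 4123, 3493 to 4057 and 5836 to 6829 CPM. No striatal projection, cortical projection, astrocyte or oligodendrocyte marker was at 0 in any of these groups, and the part of these shifts in the results was not tested.

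Compared per length of transcript, on the deposited FPKM scale, Meg3 was the highest of the 7 in WT striatum, at 1025 ± 113 FPKM (SD, n = 8). Rian followed at 516 ± 40.7 FPKM and Snhg11 at 462 ± 66.2 FPKM, with ranges that overlapped. Malat1 stood at 122 ± 14.1 FPKM and Neat1 at 69.6 ± 24.5 FPKM, again with overlapping ranges, while Mirg (31.2 ± 2.66 FPKM) and Miat (19.9 ± 5.0 FPKM) were lowest. In WT cortex the order was Meg3 (855 ± 181 FPKM), Snhg11 (664 ± 64.7), Rian (493 ± 38.1), Malat1 (133 ± 16.6), Miat (115 ± 20.7), Neat1 (41.7 ± 15.3) and Mirg (27.1 ± 2.20). The ranges of Meg3 and Snhg11, of Malat1 and Miat, and of Neat1 and Mirg overlapped there. "Abundant" therefore describes the members unevenly. By mean FPKM, Meg3 ranked 19 in striatum and 16 in cortex among all genes of WT mice, and the lowest members ranked 4049 (Miat in striatum) and 2996 (Mirg in cortex). By CPM, Malat1 and Rian had means of 896 and 892 in WT striatum, so their order by FPKM depends on the length used for each gene. How RNA was enriched is not given. Its effect on the measured level of Malat1 and Neat1 was not tested. The known end that replaces a poly(A) tail belongs to Malat1 and to the long Neat1 isoform.

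In R6/2 mice the 7 RNAs did not move as one. Malat1 was lower in both tissues, Rian and Mirg were higher in both, Meg3 was higher in the striatum, and Miat was lower in the cortex. Called means here an adjusted p under 0.05 in edgeR's quasi-likelihood test, with Benjamini-Hochberg adjustment over all genes tested. Between vehicle R6/2 and WT striatum 5 of 7 were called, 3 higher and 2 lower, where 50.2% of all genes were called, 25.8% higher and 24.5% lower. In the cortex 4 of 7 were called, 2 higher and 2 lower, where 44.1% of all genes were called, 21.5% higher and 22.6% lower. The median log2 fold change over the 7 was 0.05 in striatum and -0.17 in cortex, against 0.00 over all genes tested in each tissue. These shares are near those of all genes, so the counts alone say nothing particular about the 7. On the deposited FPKM scale, tested with limma, the median of all genes shifts to 0.12 in striatum and 0.08 in cortex and calls split 6937 higher and 2727 lower in striatum and 5469 and 2992 in cortex. On that scale Malat1 still stood at -1.03 and -0.71, Rian at 0.45 and 0.35 and Mirg at 0.46 and 0.43 in striatum and cortex.

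**Figure D1:**
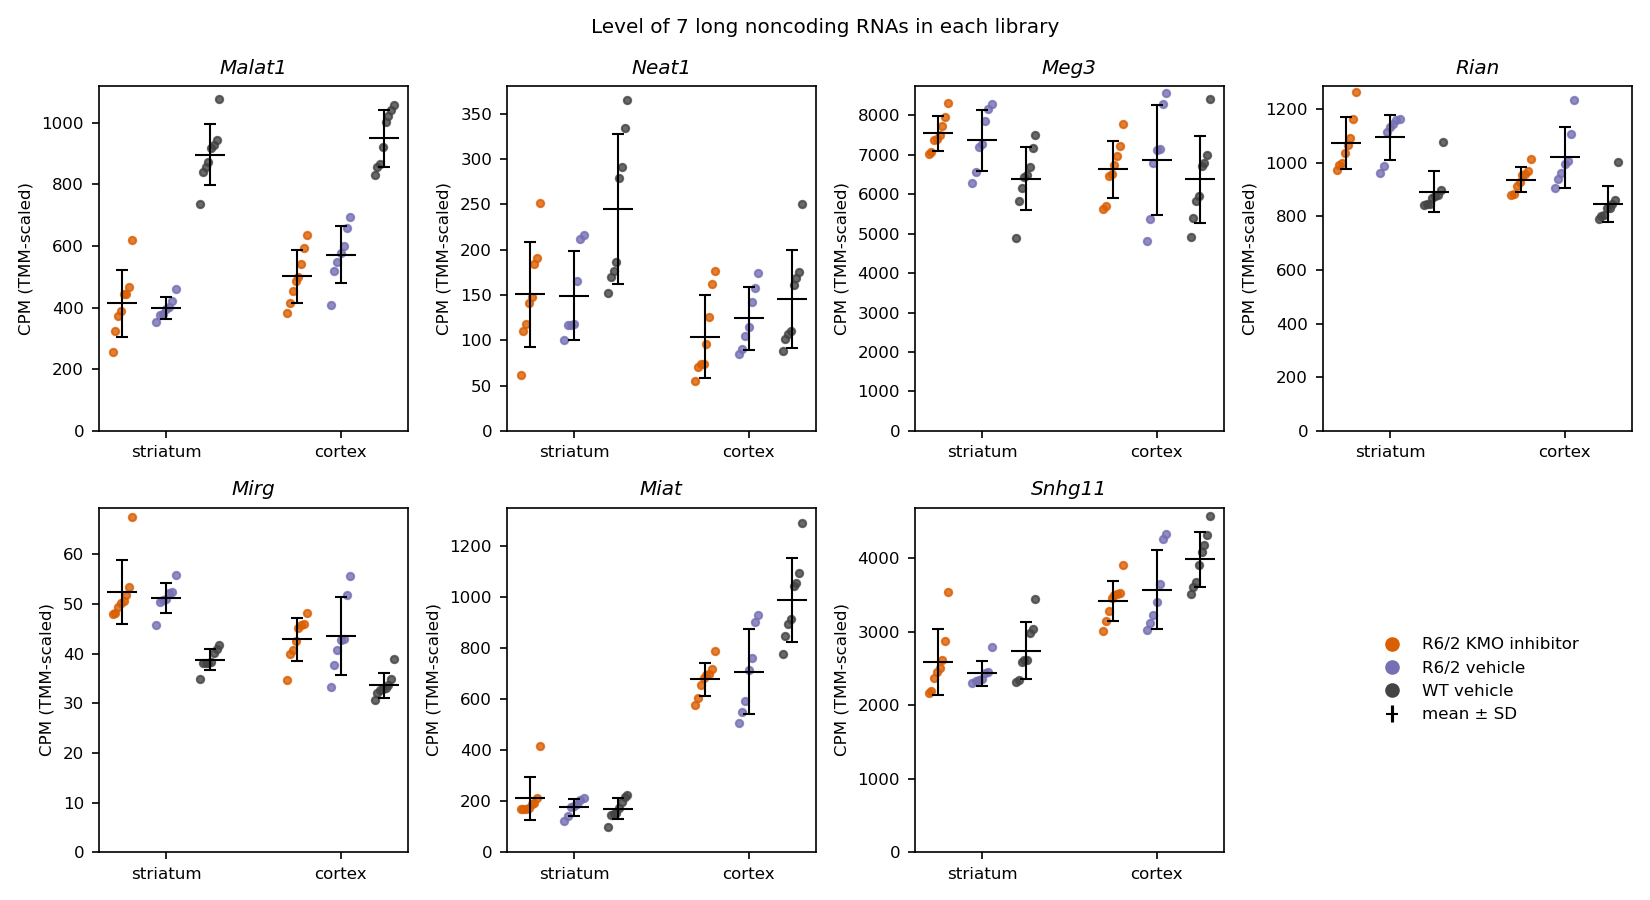
Level of each of the 7 RNAs in every library, in CPM (TMM-scaled, linear axes that start at 0), for treated R6/2, vehicle R6/2 and WT in striatum and cortex; points are animals and bars are mean ± SD (n = 8, 7 and 8). The 15 R6/2 points of Malat1 lie under all 8 WT points in each tissue, and the single high treated point of Miat in the striatum, at 418 CPM, is library F4.

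Malat1 in the striatum had a lowest, median and highest level of 254, 416 and 618 CPM in treated R6/2, of 352, 395 and 461 CPM in vehicle R6/2 and of 736, 894 and 1077 CPM in WT mice. All 15 R6/2 striata thus lay below all 8 WT striata, and the R6/2 groups overlapped each other. Against WT, Malat1 fell by 1.16 ± 0.13 on the log2 scale in vehicle R6/2 striatum (SE, adjusted p = 1.17e-07, edgeR), to 44.9% of the WT level. With any 1 of the 15 libraries left out the log2 fold change stayed between -1.19 and -1.11.

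In the cortex Malat1 had 383, 494 and 635 CPM in treated R6/2, 410, 576 and 693 CPM in vehicle R6/2 and 831, 960 and 1058 CPM in WT mice as lowest, median and highest. Again no R6/2 library reached the lowest WT library. Malat1 fell by 0.75 ± 0.11 on the log2 scale in vehicle R6/2 cortex relative to WT (adjusted p = 4.27e-06, edgeR), to 59.4% of the WT level. Malat1 and Mirg were the members whose ranges did not overlap between vehicle R6/2 and WT striatum, where 21.4% of all genes did not overlap, and Malat1 was the one such member in cortex, where 16.3% did not.

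Neat1 varied more between animals of one group than any other member did. Its level in the striatum was 62.1, 144 and 251 CPM in treated R6/2, 100, 118 and 217 CPM in vehicle R6/2 and 152, 233 and 365 CPM in WT mice (lowest, median, highest). The groups overlapped, with 4 of 7 vehicle R6/2 striata below every WT striatum. Neat1 fell by 0.70 ± 0.26 on the log2 scale in vehicle R6/2 striatum (adjusted p = 0.0274, edgeR), to 61.7% of WT, but the call held in 9 of the 15 fits that each left out 1 library. It was lost without vehicle F1, F2, M2 or M3 or without WT F3 or M1, with adjusted p between 0.0544 and 0.0635 and log2 fold changes between -0.64 and -0.58.

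In the cortex Neat1 had 55.0, 84.7 and 176 CPM in treated R6/2, 84.7, 115 and 174 CPM in vehicle R6/2 and 88.4, 136 and 250 CPM in WT mice. These groups overlapped over most of their range. The log2 fold change of vehicle R6/2 over WT was -0.24 ± 0.25 (adjusted p = 0.470, edgeR).

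Meg3, known as a brake on cell growth, had 7026, 7452 and 8327 CPM in treated R6/2, 6282, 7267 and 8284 CPM in vehicle R6/2 and 4901, 6464 and 7511 CPM in WT striatum. The groups overlapped, with 3 of 7 vehicle R6/2 striata above every WT striatum. Meg3 rose by 0.22 ± 0.08 on the log2 scale in vehicle R6/2 striatum (adjusted p = 0.0241, edgeR), a call lost without vehicle F4 (0.0607) or vehicle M3 (0.0582). In the cortex its log2 fold change was 0.10 ± 0.11 (adjusted p = 0.494, edgeR), and vehicle R6/2 cortex alone spanned 4808 to 8560 CPM.

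Rian, the host of a large cluster of snoRNAs, had 973, 1053 and 1262 CPM in treated R6/2, 962, 1132 and 1162 CPM in vehicle R6/2 and 842, 874 and 1078 CPM in WT striatum. Of the WT striata, 1 (M4) lay among the R6/2 values and the other 7 lay below all of them. Rian rose by 0.30 ± 0.06 on the log2 scale in vehicle R6/2 striatum (adjusted p = 3.11e-04) and by 0.26 ± 0.06 in vehicle R6/2 cortex (0.00111, both edgeR). Cortical levels were 881, 942 and 1013 CPM in treated R6/2, 905, 995 and 1236 CPM in vehicle R6/2 and 792, 831 and 1003 CPM in WT mice, and again all WT cortices but M4 lay below every R6/2 cortex.

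Mirg, the host of the miRNA cluster printed in part above, had 48.0, 50.5 and 67.6 CPM in treated R6/2, 45.8, 51.1 and 55.9 CPM in vehicle R6/2 and 34.9, 38.2 and 41.8 CPM in WT striatum. No WT striatum reached the lowest R6/2 striatum. Mirg rose by 0.41 ± 0.06 on the log2 scale in vehicle R6/2 striatum (adjusted p = 6.78e-06) and by 0.36 ± 0.08 in vehicle R6/2 cortex (0.00110, both edgeR). Its cortical levels were 34.7, 43.9 and 48.2 CPM in treated R6/2, 33.4, 42.8 and 55.7 CPM in vehicle R6/2 and 30.8, 32.9 and 39.0 CPM in WT mice, with 5 of 7 vehicle R6/2 cortices above every WT cortex.

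Miat had 170, 181 and 418 CPM in treated R6/2, 124, 182 and 214 CPM in vehicle R6/2 and 101, 165 and 224 CPM in WT striatum, with wide overlap. Its log2 fold change of vehicle R6/2 over WT was 0.05 ± 0.19 there (adjusted p = 0.834, edgeR). In the cortex Miat had 578, 689 and 786 CPM in treated R6/2, 508, 714 and 927 CPM in vehicle R6/2 and 777, 978 and 1290 CPM in WT mice. It fell by 0.49 ± 0.11 on the log2 scale in vehicle R6/2 cortex (adjusted p = 0.00106, edgeR), to 71.0% of WT, with 5 of 7 vehicle R6/2 cortices below every WT cortex.

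Snhg11 had 2167, 2481 and 3535 CPM in treated R6/2, 2301, 2353 and 2796 CPM in vehicle R6/2 and 2318, 2619 and 3440 CPM in WT striatum, and the groups overlapped. Its log2 fold change of vehicle R6/2 over WT was -0.16 ± 0.10 (adjusted p = 0.166, edgeR). In the cortex it had 3011, 3484 and 3908 CPM in treated R6/2, 3029, 3401 and 4325 CPM in vehicle R6/2 and 3517, 3996 and 4568 CPM in WT mice. The cortical log2 fold change was -0.17 ± 0.07 and just missed the threshold (adjusted p = 0.0615, edgeR), which it passed without vehicle M1, vehicle M2 or WT M2.

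Library names carry an L tag (L1 to L8) whose meaning is not given, and it is spread unevenly over the groups. Within the tags that both groups share, Malat1 had a log2 fold change of vehicle R6/2 over WT of -1.19 ± 0.09 in striatum (7 against 5 libraries) and -0.62 ± 0.09 in cortex (4 against 8). Rian stood at 0.34 and 0.24 and Mirg at 0.44 and 0.29 within shared tags, Meg3 at 0.27 in striatum and Miat at -0.51 in cortex, each still called by edgeR. Neat1 in striatum stood at -0.63 (adjusted p = 0.0660) and was no longer called, and Snhg11 in striatum stood at -0.21 (0.0381) and was called. With the L tag as a covariate in place of shared tags, Mirg in the cortex stood at 0.27 and was no longer called (adjusted p = 0.0522, edgeR). Treated R6/2 and WT cortices share no L tag, so tag and group cannot be told apart in that comparison.

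**Figure D2:**
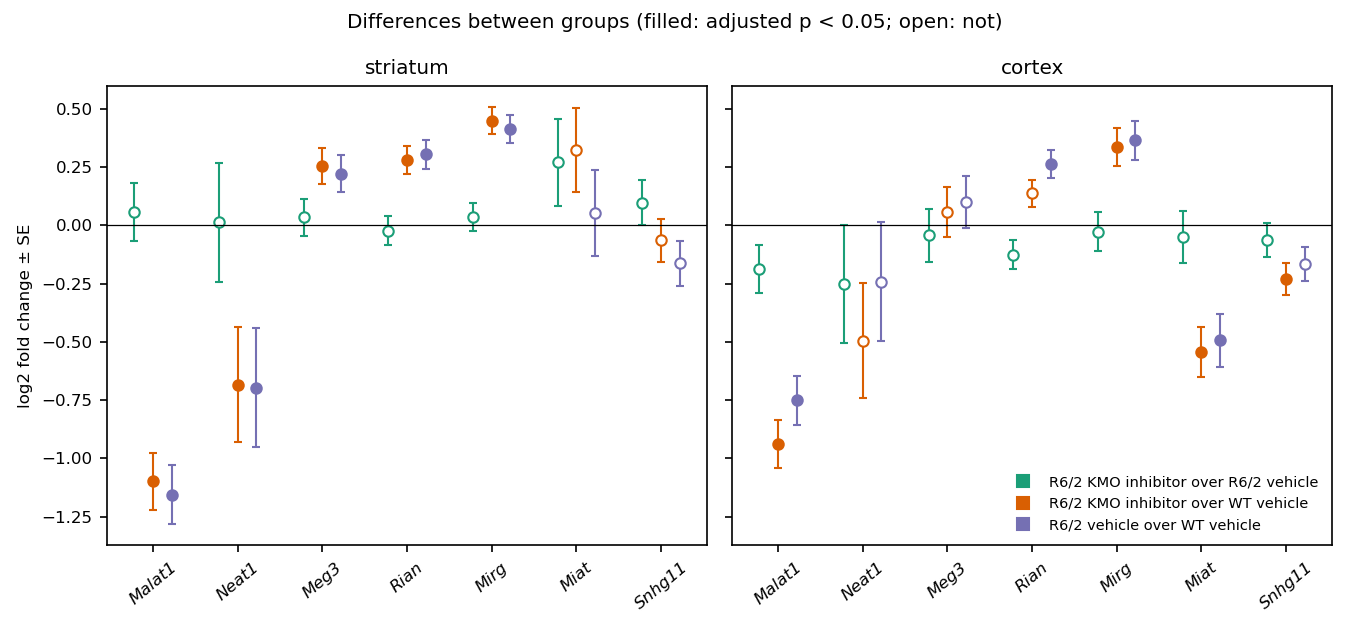
Log2 fold change ± SE of each of the 7 RNAs in striatum and cortex for 3 comparisons (treated over vehicle R6/2, treated R6/2 over WT, vehicle R6/2 over WT); filled points passed an adjusted p under 0.05 and open points did not. Malat1 lies at -1.16 in striatum and -0.75 in cortex for vehicle R6/2 over WT, and every point of treated over vehicle R6/2 is open.

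Female and male R6/2 mice were alike in sign for Malat1. Its log2 fold change of vehicle R6/2 over WT was -1.16 in females and -1.15 in males in the striatum, and -0.69 in females and -0.79 in males in the cortex. No member and no other gene was called for a difference of the R6/2 effect between the sexes (0% of genes in striatum and 0% in cortex by edgeR). An unadjusted edgeR p under 0.05 was found for 773 of 17394 genes in striatum and 1098 of 17484 in cortex. For Mirg the log2 fold change was 0.48 in females and 0.34 in males in the striatum, and 0.24 in females and 0.51 in males in the cortex. Mean cortical Miat in vehicle R6/2 against WT was 591 against 907 CPM in females and 863 against 1070 CPM in males. Mean cortical Snhg11 was 3191 against 3866 CPM in females and 4081 against 4099 CPM in males.

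Treatment moved no member past the threshold. Between treated and vehicle R6/2 mice 0 of 7 were called in striatum (0% of all genes) and 0 of 7 in cortex (0% of all genes) by edgeR, and DESeq2 and limma on FPKM also called 0 genes. At an unadjusted p under 0.05 edgeR had 465 of 17394 genes in striatum and 1014 of 17484 in cortex. DESeq2 had 467 and 1065, and limma 438 and 1018. Among genes without any difference, a share of 0.05 falls under this threshold by chance. The intervals show what the data leave possible for Malat1: the log2 fold change of treated over vehicle was 0.06 in striatum (95% interval -0.20 to 0.32) and -0.19 in cortex (-0.41 to 0.03). Both upper ends lie under the size of the R6/2 difference in Malat1 given above. For Neat1 the intervals were wide, at 0.01 in striatum (-0.52 to 0.55) and -0.25 in cortex (-0.78 to 0.28). Rian in the cortex had the lowest unadjusted p of the 14 values, 0.0492, for a log2 fold change of -0.13 ± 0.06, with an adjusted p of 0.836 (edgeR). The largest striatal value was that of Miat, 0.27 (95% interval -0.12 to 0.66). Without treated F4 the striatal values were 0.05 ± 0.14 for Miat, 0.14 ± 0.10 for Malat1 and 0.14 ± 0.23 for Neat1, and still no member was called (SE, adjusted p = 0.999 for all 7, edgeR).

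Treated R6/2 mice were also set against WT, a comparison that shares the WT libraries with the one above, so its values stand beside the others and add no independent count. In the striatum 5 of 7 members were called, 3 higher and 2 lower (52.9% of all genes, 27.8% higher and 25.2% lower), and in the cortex 4 of 7, 1 higher and 3 lower (46.7% of all genes, 22.8% higher and 23.9% lower). Malat1 fell by 1.10 ± 0.12 on the log2 scale in treated striatum (adjusted p = 1.01e-07) and by 0.94 ± 0.10 in treated cortex (9.10e-08, both edgeR). Mirg rose by 0.45 and 0.34 in treated striatum and cortex (adjusted p = 1.14e-06 and 0.00155, edgeR). Malat1 and Mirg did not overlap between treated R6/2 and WT striatum (19.8% of all genes did not), nor did Malat1 in cortex (17.2%). Neat1 fell by 0.68 ± 0.25 in treated striatum (adjusted p = 0.0232, edgeR), a call lost without WT M1 (0.0663) and within shared tags (0.0547), and Meg3 and Rian rose by 0.26 and 0.28 (0.00761 and 4.29e-04). Without treated F4 the same 5 striatal members were called, with Malat1 at -1.02, Neat1 at -0.56 (adjusted p = 0.0403, edgeR), Meg3 at 0.24, Rian at 0.30 and Mirg at 0.45. In the cortex Miat fell by 0.54 (adjusted p = 2.70e-04) and Snhg11 by 0.23 (0.00829, both edgeR), Rian stood at 0.14 (0.0589; 0.0144 without WT M4) and Neat1 at -0.49 (0.104; 0.0452 without treated F1 and 0.0304 without treated M4).

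Striatum and cortex of WT mice differed most in Miat, which was lower in the striatum, at 16.7% of the cortical level (log2 -2.58 ± 0.15, adjusted p = 2.12e-08, edgeR with the animal as a block). Neat1 was higher in the striatum by 0.73 ± 0.05 on the log2 scale (adjusted p = 4.45e-08), as was Mirg by 0.18 ± 0.04 (0.00129), and Snhg11 was lower (log2 -0.57 ± 0.07, 2.41e-05, all edgeR). These 4 of 7, 2 higher and 2 lower, compare with 62.8% of all genes, 31.2% higher and 31.6% lower. Malat1, Meg3 and Rian had log2 differences of -0.11, -0.02 and 0.05 (adjusted p = 0.157, 0.901 and 0.244). WT striata carry L1 to L4 and WT cortices L7 or L8, so tag and tissue cannot be told apart in these values. Vehicle R6/2 striata (L1 to L3) and cortices (L5 to L8) share no tag either. The part of the tag in the R6/2 effect compared between tissues below was not tested.

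Neat1 was the one member whose R6/2 effect was called as different between the tissues. Its log2 fold change of vehicle R6/2 over WT was more negative in the striatum, with a difference of -0.50 ± 0.11 (striatum minus cortex, adjusted p = 0.00178, edgeR with the animal as a block), where 15.8% of genes were called, 7.06% higher and 8.74% lower. Within an animal, the striatal Neat1 level was 0.871, 1.24 and 1.39 times the cortical one in vehicle R6/2 mice (lowest, median, highest). In WT mice it was 1.46, 1.72 and 1.90 times. Treated R6/2 mice spanned 1.13, 1.48 and 2.10 times and overlapped both, with 1.13 from the animal of striatal library F4. These ratios come from the values on which the difference was called, so they describe it and add no support. The difference between tissues was -0.43 ± 0.15 for Malat1 (adjusted p = 0.0575) and 0.56 ± 0.21 for Miat (0.0758, both edgeR). Without both libraries of the animal that gave treated striatal library F4, a choice made after seeing the data, these 2 were called as well (adjusted p = 0.0287 and 0.0335). Without the animal as a block 0 members were called. For the compound, 0 of 7 members and 0% of genes were called for a difference between the tissues by edgeR. An unadjusted edgeR p under 0.05 was found for 1258 of 18122 genes, among them Neat1 at 0.29 ± 0.11 (adjusted p = 0.715). Without the animal of treated striatal F4 this Neat1 value was 0.34 ± 0.10 (adjusted p = 0.763, edgeR), and the R6/2 effect on Neat1 still differed between the tissues by -0.50.

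**Figure D3:**
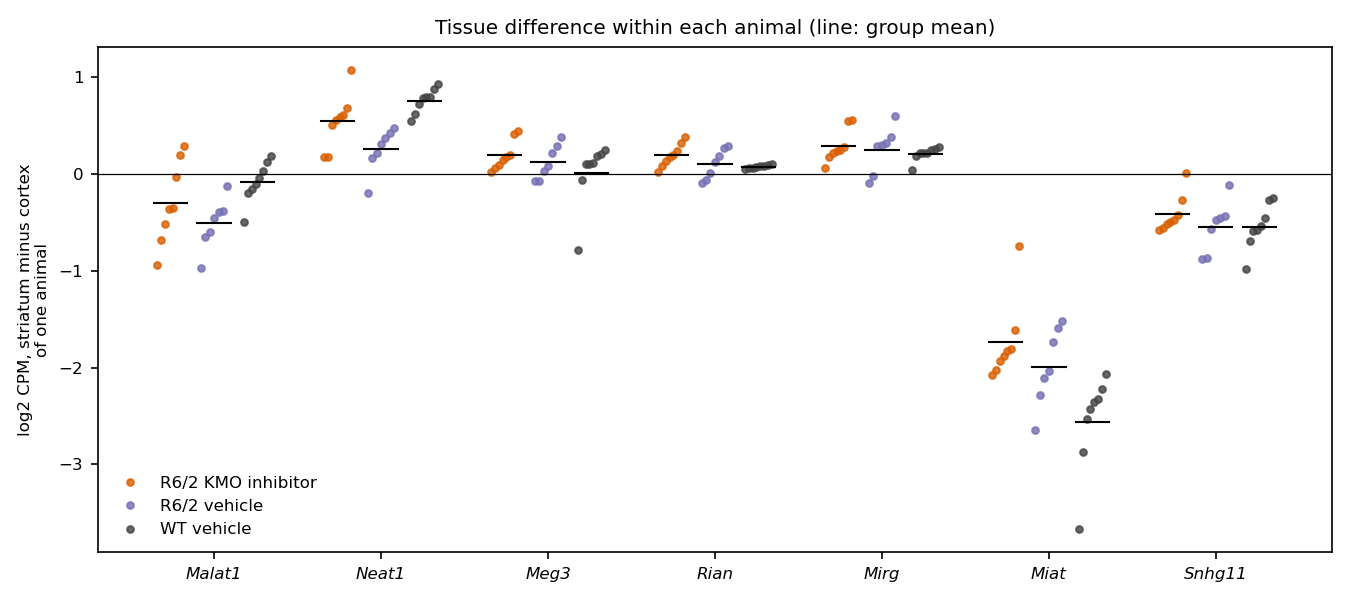
Log2 difference in CPM between the striatum and the cortex of each animal for the 7 RNAs, in treated R6/2, vehicle R6/2 and WT mice; points are animals and lines are group means. For Neat1 the animals span -0.20 to 0.48 in vehicle R6/2 and 0.55 to 0.93 in WT mice. For Miat every animal of each group lies below 0.

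The spread of Neat1 between animals of a group was shared by both tissues of an animal. With group and sex means removed, the log2 Neat1 level of an animal's striatum and cortex correlated at Pearson r = 0.941 (permutation p = 4.00e-05, adjusted over 7 relations 2.80e-04) and Spearman rho = 0.867 (permutation p = 4.00e-05) over 23 animals. Leaving out the 2 animals farthest from the median gave r = 0.927, and r was 0.928 in treated R6/2, 0.925 in vehicle R6/2 and 0.980 in WT mice. Both tissues lay on the same side of the mean of their group and sex in 23 of 23 animals. The standard deviation of log2 Neat1 within groups was 0.55 in striatum and 0.56 in cortex, against a median of 0.16 over all genes in each tissue. The next highest of the members was Miat in striatum, at 0.39.

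Rian and Mirg were also alike in both tissues of an animal, over much narrower spreads of 0.12 and 0.11 in striatum and 0.12 and 0.17 in cortex. Their correlations between tissues were r = 0.750 (permutation p adjusted 0.00959, rho = 0.684, r = 0.654 without the 2 farthest) for Rian and r = 0.646 (adjusted 0.00959, rho = 0.738, r = 0.794 without the 2 farthest) for Mirg. The permutation p of rho, adjusted over 7 relations, was 0.00737 for Rian and 0.0021 for Mirg. Within groups r was 0.788, 0.683 and 0.998 for Rian and 0.585, 0.871 and 0.80 for Mirg in treated R6/2, vehicle R6/2 and WT mice. The WT animal M4 was highest for Rian in both tissues. Malat1, Meg3, Miat and Snhg11 had r between -0.07 and 0.24, with adjusted permutation p of at least 0.724. Within groups the r of Meg3 was 0.115 in treated R6/2, 0.935 in vehicle R6/2 and -0.30 in WT mice. The striatal and the cortical library of every animal carry different L tags in their names.

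**Figure D4:**
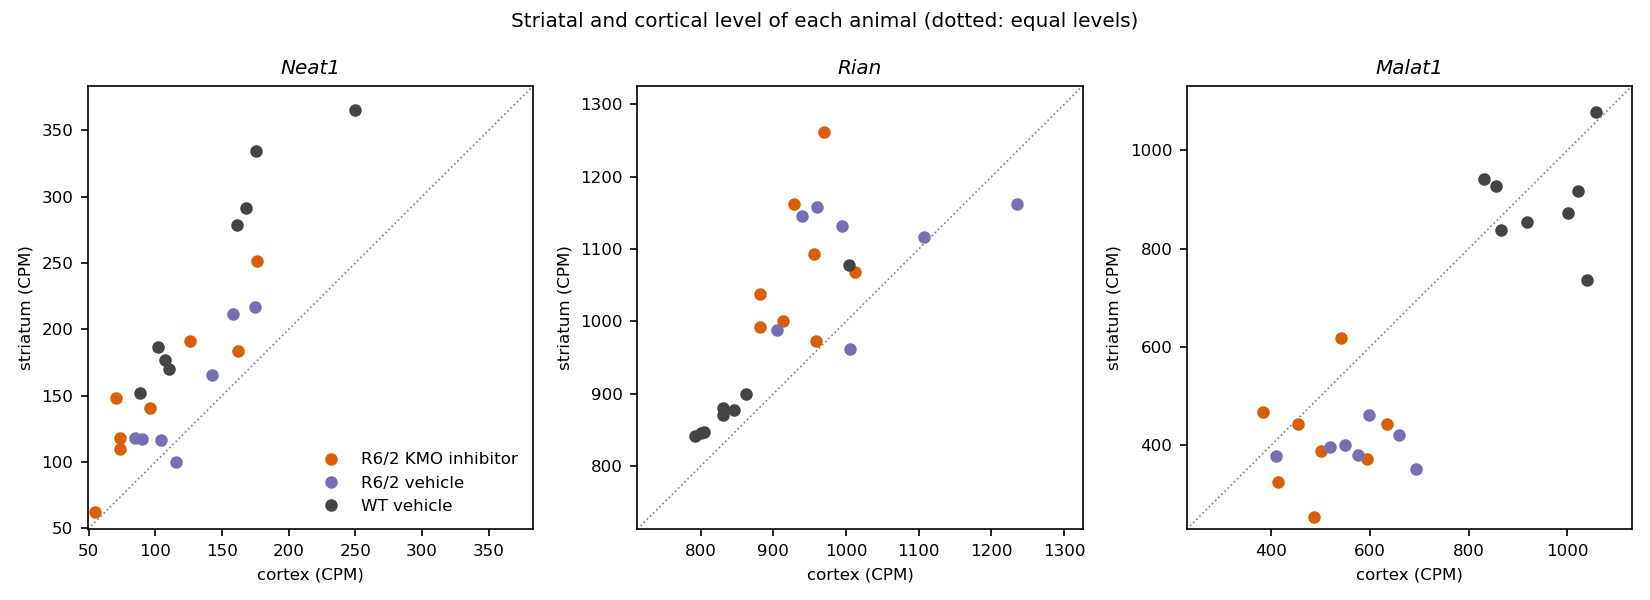
Striatal level against cortical level of each animal, in CPM on linear axes, for Neat1, Rian and Malat1; points are animals coloured by group and the dotted line marks equal levels. Neat1 points rise along a line within every group (r = 0.941 after removal of group and sex means), and Malat1 points form 2 clouds, R6/2 and WT, without such a line (r = 0.119).

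In the Dlk1-Dio3 domain a gene on the opposite strand went the other way. Rtl1, a retrotransposon-derived gene known in mouse to be expressed from the paternal chromosome, lies on the minus strand between Meg3 and Rian. It had 10.8, 13.9 and 17.8 CPM in treated R6/2, 12.4, 13.3 and 15.1 CPM in vehicle R6/2 and 21.2, 25.6 and 32.2 CPM in WT striatum, and no R6/2 striatum reached the lowest WT one. Rtl1 fell by 0.94 ± 0.10 on the log2 scale in vehicle R6/2 striatum (adjusted p = 1.13e-07) and by 0.43 ± 0.09 in vehicle R6/2 cortex (7.25e-04, both edgeR), while its plus-strand neighbours Rian and Mirg rose in both tissues. Reads of a gene and of an antisense transcript cannot be told apart here, because strandedness is not given in the sources used.

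Gm26945, a lincRNA row inside Rian on the same strand (chr12:109640341-109642351), rose more than Rian itself. It had 4.00, 5.95 and 9.28 CPM in treated R6/2, 4.64, 6.69 and 13.4 CPM in vehicle R6/2 and 1.67, 3.24 and 3.63 CPM in WT striatum, with no overlap between R6/2 and WT. Its rise was 1.30 ± 0.21 on the log2 scale in vehicle R6/2 striatum (adjusted p = 1.80e-05) and 1.45 ± 0.21 in vehicle R6/2 cortex (7.91e-06, both edgeR). Estimated counts can split reads between overlapping rows, so the division between Gm26945 and Rian is uncertain.

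Further genes of the domain moved less or were low. Dlk1, a membrane ligand related to Notch ligands, had log2 fold changes of 0.16 ± 0.35 and 1.06 ± 0.63 in vehicle R6/2 striatum and cortex (adjusted p = 0.723 and 0.181, edgeR). Dio3, which inactivates thyroid hormone, was called lower (-0.74 and -2.41, adjusted p = 0.0228 and 0.0148) at means below 1 CPM. Ppp2r5c, a phosphatase subunit just outside the domain, fell by 0.15 and 0.17. Of the 13 other genes listed for the domain and its flanks, 4 were higher and 4 lower in vehicle R6/2 striatum (61.5% called, against 50.2% of all genes), and 3 higher and 4 lower in cortex (53.8%, against 44.1%). Of 27 imprinted genes elsewhere that were tested in striatum, 9 were higher and 2 lower (40.7%), and of 26 in cortex 8 were higher and 3 lower (42.3%). The shares of the domain list lay above those of all genes, and the shares of imprinted genes elsewhere lay below them. Most called imprinted genes elsewhere were higher, while all genes split 25.8% higher and 24.5% lower in striatum and 21.5% and 22.6% in cortex. These differences from all genes were not tested.

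**Figure D5:**
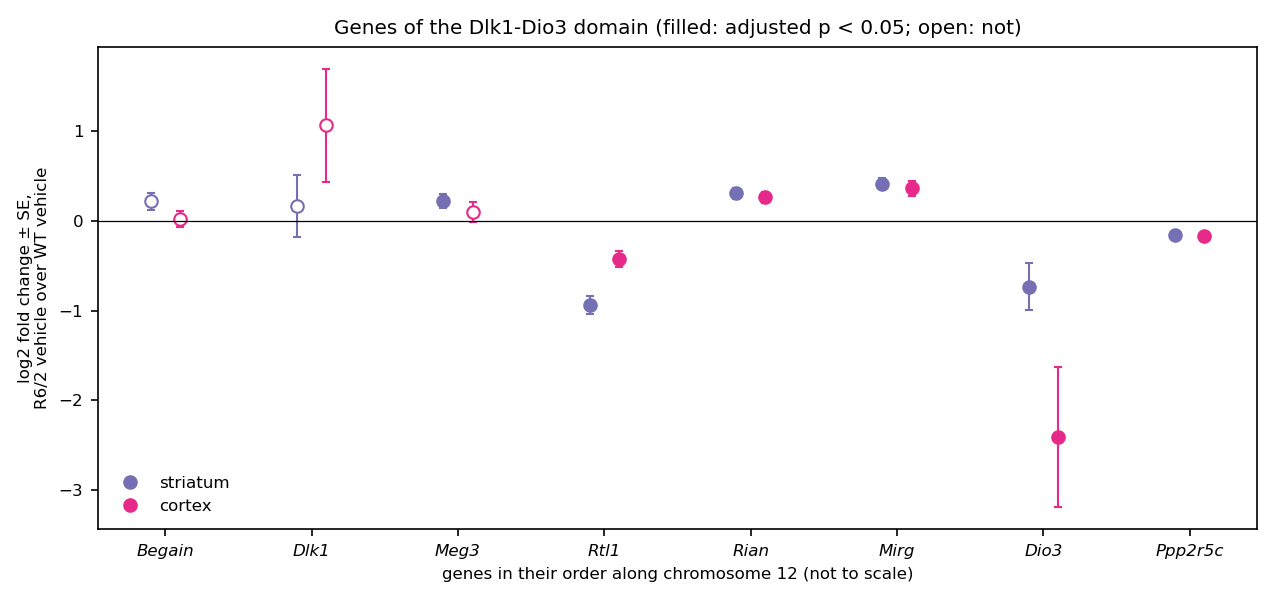
Log2 fold change ± SE of vehicle R6/2 over WT for genes in their order along the Dlk1-Dio3 region, in striatum and cortex; filled points passed an adjusted p under 0.05. Meg3, Rian and Mirg lie at 0.22, 0.30 and 0.41 in striatum, and Rtl1, between Meg3 and Rian on the other strand, lies at -0.94.

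Within a library, ratios between members take out scaling. The log2 ratio of Malat1 to Meg3 was lower in vehicle R6/2 than in WT, with a difference of -1.38 in striatum and -0.84 in cortex (vehicle minus WT, exact permutation test over the 15 animals, p adjusted over 12 ratios 0.00373 and 0.00559; the smallest unadjusted p possible was 3.11e-04). The ratio of Snhg11 to Meg3 was also lower, with differences of -0.37 and -0.26 (adjusted exact p = 0.0298 and 0.0420). Ratios within the imprinted cluster moved less: Rian to Meg3 differed by 0.09 and 0.17, Mirg to Rian by 0.11 and 0.09 and Mirg to Meg3 by 0.19 and 0.26, none past an adjusted exact p of 0.05. Neat1 to Malat1 differed by 0.47 and 0.55, likewise not past it.

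The mRNAs of proteins found in nuclear speckles and paraspeckles were counted as lists, and the proteins themselves were not measured. Of 25 genes of nuclear speckle proteins, 12 were higher and 3 lower in vehicle R6/2 striatum (60% called, against 50.2% of all genes, 25.8% higher and 24.5% lower). In cortex 14 were higher and 2 lower (64%, against 44.1% of all genes, 21.5% higher and 22.6% lower). Their median log2 fold change was 0.10 in striatum and 0.17 in cortex, against 0.00 over all genes. The splicing factor Srsf6 rose by 0.44 and 0.42, the kinase Prpf4b by 0.46 and 0.47, and the kinase Clk4 fell by 0.40 and 0.16, in striatum and cortex. Of 24 genes of paraspeckle proteins, 10 were higher and 2 lower in striatum and 11 higher and 1 lower in cortex (median 0.12 and 0.11). With 50% called in each tissue, their total share lay near that of all genes. Most of those called were higher, however, while the calls of all genes given above split almost evenly. The RNA-binding protein gene Taf15 rose by 0.51 and 0.64, Rbm14 by 0.33 and 0.35, and the cleavage factor subunit Nudt21 by 0.33 and 0.32. Of 19 genes of nuclear RNA decay and modification, 10 were higher and 3 lower in striatum (68.4% called) and 8 higher and 3 lower in cortex (57.9%; median 0.13 and 0.09), with the exosome nuclease Dis3 up by 0.51 and 0.49.

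Noncoding RNAs that are no members went both ways. Of the further brain long noncoding RNAs tested, 6 of 28 were higher and 5 lower in vehicle R6/2 striatum (39.3% called, against 50.2% of all genes), and 7 of 29 higher and 8 lower in cortex (51.7%, against 44.1%; median 0.03 and 0.12). Dlx6os1, transcribed opposite an interneuron factor, fell by 0.72 and 0.95, and Pantr1 by 0.68 and 0.42. Of 10 other snoRNA hosts, 2 were higher and 0 lower in striatum (20%) and 0 were called in cortex, both under the shares of all genes, while their relative Snhg11 was called in neither. Of 12 RNAs without a poly(A) tail tested in striatum, 1 was higher and 2 lower in treated R6/2 than in WT mice (median -0.29), and 3 were higher and 0 lower in vehicle R6/2 than in WT mice (median -0.01). Of 9 tested in cortex, 0 were higher and 1 lower in treated R6/2 (median -0.01), and 1 was higher and 0 lower in vehicle R6/2 (median 0.08). In each of these comparisons 25% of the list was called in striatum and 11.1% in cortex, under the shares of all genes. Their summed level was 52.8 to 86.1 CPM in treated R6/2, 74.6 to 100 CPM in vehicle R6/2 and 74.7 to 120 CPM in WT striatum, and the 3 groups overlapped. The lowest of these, 52.8 CPM, is treated library F4. The part of this list's shifts in the Malat1 result was not tested.

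The genes whose log2 levels followed each member most closely across the 46 libraries, after removal of tissue, group and sex means, are given as a description, since tissues of one animal are not independent. Among 16964 genes Malat1 was closest to Thoc2, an mRNA export factor (r = 0.750), Neat1 to Csrp1, a cytoskeletal LIM protein (0.712), and Meg3 to Nwd1 (0.897). Mirg was closest to Gtpbp2 (0.720), Miat to the adenylyl cyclase Adcy6 (0.908) and Snhg11 to Pnpla3 (0.778). The ranking is unstable: of the 21 genes named by it, 4 remained in the striatum alone, 2 in the cortex alone and 8 by Spearman's rho. Malat1 and Neat1, although neighbours, had r = 0.111 with each other, and the closest pair of members was Meg3 and Miat (r = 0.655).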

How the data were processed

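Libraries from the right striatum and right cortex of 23 mice were compared by group. Per the labels' protocols, RNA came from frozen tissue by miRNeasy extraction, and enriched subfractions of it were made into Illumina libraries. Enrichment method, strandedness, aligner and quantifier were not given in the sources used here. CASAVA 1.8.2 and build mm10 appear in the submitters' processing notes. The authors deposited estimated counts per gene (33.8% of nonzero values not whole, tolerance 1e-06) and FPKM values, which they scaled to length and depth.

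Estimated counts were rounded and tested with edgeR 4.0.16 (R 4.3.3) by the quasi-likelihood test, with TMM scaling, filterByExpr, sex as a covariate and 3 groups per tissue, which left 17394 genes in striatum and 17484 in cortex. Comparisons between tissues used the animal as a block, since animal codes in the labels tie both libraries of a mouse. P-values were adjusted by Benjamini-Hochberg over all genes, the SE is the log2 fold change over the square root of F, and 95% intervals use 19 residual degrees of freedom. FPKM values were tested with limma 3.58.1 as log2(FPKM + 0.1), and DESeq2 1.42.0 was an alternative. The tests were also run on simulated counts with few changed genes and a fixed spread. That setting differs from these data, so it does not show how accurate the tests are here. Depth of 30.4 to 37.8 (in units of 1000000 counts) per library makes counting error of the members small beside the spread between animals.

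Named genes are the 7 members, the 3 genes most like each by Pearson r, the nearest tested neighbours, and up to 3 called genes per list with the largest change; Gm26945 follows from the neighbour rule, and Clk4, Pantr1 and Dlx6os1 from the list rule. The members, lists and tests were chosen with earlier results of these data known. Symbols matched 42462 genes (98.0%). Replicate numbers do not pair animals. Sequences are from RefSeq (GRCm38.p6) and GENCODE vM21 transcripts; a start window of Neat1 was not used here.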

Additional observations from a re-analysis of the deposited data

Results flagged for a closer look

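Of 42 groups of 7 or 8 libraries examined, 5 held a library far from the rest of its group, where chance gives about 1 in 20. Rian was 1078 CPM in WT striatal M4, against 842 to 899 CPM in the other WT striata, and 1003 CPM in WT cortical M4, against 792 to 863 CPM, and these libraries come from one animal. Mirg was 67.6 CPM in treated striatal F3, against 48.0 to 53.5 CPM in the other treated striata. Miat was 418 CPM in treated striatal F4, against 170 to 213 CPM, in the library whose summed striatal projection neuron markers were 1021 CPM. Snhg11 was 2796 CPM in vehicle striatal F3, against 2301 to 2458 CPM in the other vehicle R6/2 striata. The R6/2 effect on Neat1 differed between the tissues by a tested interaction, with -0.50 on the log2 scale (striatum minus cortex, adjusted p = 0.00178, edgeR).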

How the results depend on the processing

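Under other tests, scalings and terms, 511 values of single members kept direction and side of the threshold, 10 gained a call, 10 lost one and 1 changed sign. The sign change was Meg3 in WT striatum against WT cortex, at 0.28 by limma on FPKM. The number of members called between vehicle R6/2 and WT striatum ran from 3 to 5 when 1 library was left out, lowest without vehicle M3. The number called for a different R6/2 effect between tissues was 0 without the animal as a block and 3 without the animal of treated striatal F4. Of 21 genes named for likeness, 4, 2 and 8 remained in striatum alone, cortex alone and by Spearman's rho. With the replicate number as a block, which does not pair animals (same-number correlations between -0.273 and 0.138), 8276 genes in striatum and 7351 in cortex were called for vehicle R6/2 against WT, and of the members Rian in treated R6/2 against WT cortex was called as well (adjusted p = 0.0387, edgeR). Limma on FPKM lost the striatal calls of Neat1 (adjusted p = 0.0715 for vehicle R6/2 against WT) and called Miat in treated R6/2 against WT striatum (0.48, adjusted p = 0.0323), and the L tag as a covariate lost Mirg in cortex (0.27, adjusted p = 0.0522, edgeR); the causes were not tested. Isoforms, nuclear against cytoplasmic RNA, cell types and mature miRNAs were not measured.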

Other observations

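The 3 genes whose levels followed Rian most closely across libraries all lie on its own chromosome, although chromosome 12 holds 3.44% of the genes compared. They are Gm30238 (r = 0.781), Gm15996 (0.675) and 2810029C07Rik (0.589), which lie 3.03, 2.07 and 1.91 Mb beyond Rian, outside the imprinted domain. The 3 genes were picked for following Rian, so their levels beside it are a description. In treated R6/2 mice the animal of striatal library F3 was highest for all 3 genes in both tissues and for Rian in the striatum (1262 CPM), while another animal was highest for Rian in the cortex (1013 CPM). In vehicle R6/2 mice 1 animal was highest for Rian in both tissues (1162 and 1236 CPM), and it was highest for 2 of the 3 genes in the cortex and for none in the striatum. In WT mice the animal M4 was highest for Rian and all 3 genes in both tissues. Its Gm30238 level was 5.78 CPM in the striatum, against at most 3.71 CPM in the other WT striata, and 4.60 CPM in the cortex, against at most 2.84 CPM. Of these 3 genes, 2 remained closest in the striatum alone, 1 in the cortex alone and 2 by Spearman's rho. One of the 3 genes closest to Neat1, Map4k2 (r = 0.677), lies 0.496 Mb from it on chromosome 19. Why these neighbours vary together between animals was not tested.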
